A study of Mus musculus with 12 samples.

Results

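The 55 genes described here encode the machinery that copies DNA and the G1/S regulators that switch it on, from origin licensing factors and replicative polymerases to the enzymes of deoxynucleotide supply and the E2F transcription factors. They were taken as a list of gene symbols by a rule that uses no measured value, though the list was drawn up with earlier results of these data known, and each was represented by the probe set with the highest mean over all arrays. Of the 55, 54 had a probe set that names them alone, out of 22180 genes on the array, and 1 (Rfc4) was not analysed here. All 54 passed the filter on dim genes and stood among 18652 genes tested.

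Expression was measured on 12 microarrays of murine MP cells. These model the MYC-driven Group 3 form of medulloblastoma, which in people is a malignant cerebellar tumour of childhood. Cells of 3 tumours (MP525, MP567 and MP570) came from cerebella of NSG mice, an immunodeficient strain, and were dissociated and cultured in neurocult medium with proliferation supplement. Each tumour was exposed either to 0.00025% DMSO, the solvent, or to 25 nM LBH589 (panobinostat, an inhibitor of histone deacetylases), and lysed after 6 or 12 h. This gave 4 groups of 3 arrays, DMSO and LBH589 at each time, with each tumour on 4 arrays. All groups share the tumour model, the host strain and the medium. The age of the mice and the number of animals behind each tumour were not given in the sources used here.

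Chromosome copying starts with licensing: the origin recognition complex, CDC6 and CDT1 load the MCM helicase onto DNA in G1. In S phase the kinase CDC7 with its activator DBF4, together with CDC45, MCM10 and the GINS complex, turns the helicase on, and polymerases held on DNA by the PCNA clamp then extend both strands. Transcription of most of these genes peaks at the G1/S border, where activator E2F factors drive it and the repressors E2F7 and E2F8 later close it. In medulloblastoma these genes are known as part of the proliferation signature of the tumour.

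Part of this machinery was lower in LBH589 than in DMSO, while a few subunits were higher. The 2 largest falls at each time were those of the kinase activator Dbf4 and of Rrm2, a subunit of ribonucleotide reductase. At 6 h 8 members fell and 4 rose (limma, Benjamini-Hochberg adjusted p under 0.05 over 18652 genes), against 7.31% of all tested genes called lower and 8.49% called higher. At 12 h 17 members fell and 1 rose, against 9.07% called lower and 9.13% called higher. All 8 genes that fell at 6 h also fell at 12 h, and Prim2, the regulatory subunit of primase, was called higher at both times. The median log2 difference of the 54 members was -0.14 at 6 h and -0.32 at 12 h, beside -0.02 and 0.01 over all tested genes. Averaged over both times 20 members were lower and 5 higher, beside 14.4% and 15.7% of all genes.

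Arrays of 1 tumour share their source, so the same comparisons were also fitted with the tumour as a block. That fit called 17 members lower and 7 higher at 6 h, beside 16% and 18% of all tested genes, and 31 lower and 4 higher at 12 h, beside 18.5% and 18.6%. Averaged over both times it called 32 lower and 6 higher, beside 22.2% and 23.7% of all genes. The members' share of falls was above that of the array in each of these comparisons, and their share of blocked rises was below it. P-values without the block measure a spread that includes the differences between the tumours. With the block those differences are taken out, and the p-values measure the spread that remains. In both fits they cover these cultures of 3 tumours only.

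Without the block the counts depended on single arrays. The 8 falls at 6 h became 3 without LBH589 MP525, 3 without DMSO MP567 and 4 without LBH589 MP570, all at 6 h, and the 4 rises became 2 without DMSO MP525, DMSO MP567 or LBH589 MP567 at 6 h. The 17 falls at 12 h became 10 without DMSO MP525, 8 without DMSO MP567, 11 without DMSO MP570 and 8 without LBH589 MP570 at 12 h, and the rise of Prim2 was lost without DMSO MP567. Without the whole tumour MP525, MP567 or MP570 the falls numbered 2, 5 and 2 at 6 h and 6, 11 and 7 at 12 h. The calls that held without each array in turn were those of Dbf4, Rfc5, Rrm1, Prim2 and Rpa1 at 6 h, and of Dbf4, Rrm2, E2f3, Rfc5, Rrm1, Mcm5 and Mcm7 at 12 h. Every other call at a single time was lost without at least 1 array. With the block, leaving out 1 array gave between 12 and 19 falls at 6 h and between 27 and 32 at 12 h.

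**Figure D1:**
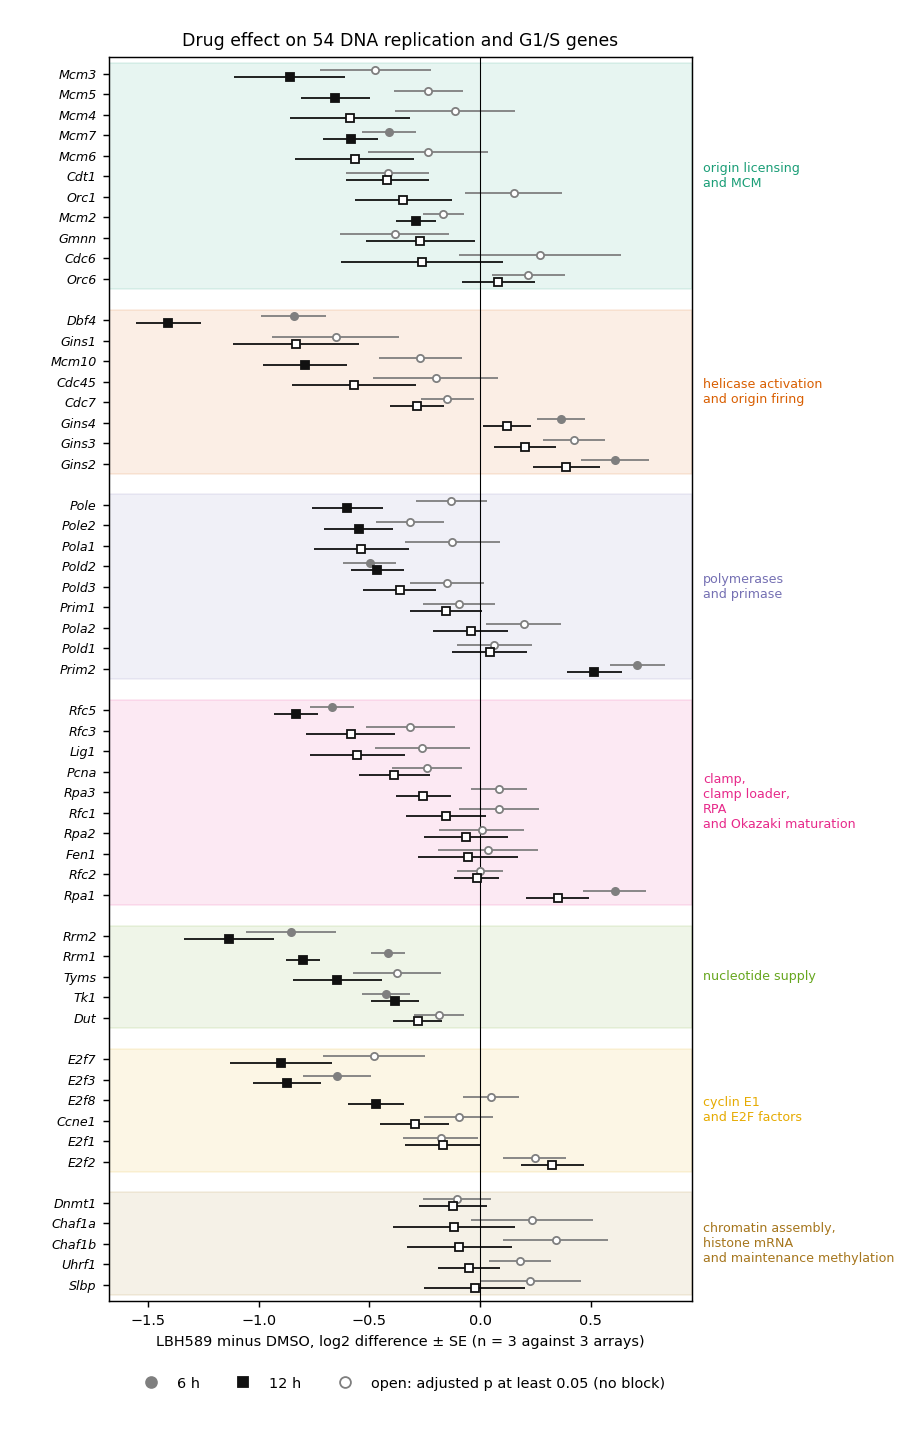
Log2 difference between LBH589 and DMSO (x axis, LBH589 minus DMSO, points with standard error, n = 3 arrays against 3) for the 54 members (y axis), grouped by role, at 6 h (circles) and 12 h (squares); filled symbols passed the adjusted p of 0.05 without the tumour block. Most 12 h symbols sit left of 0, from -1.41 for Dbf4, while Prim2 and Gins2 sit right of 0 at both times.

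In bulk RNA fewer cells of a type and less RNA per cell cannot be told apart, and markers of cycling cells moved with the drug. Of 5 such markers on the array (Mki67, Top2a, Plk1, Aurkb and Cdk1), 2 fell at 6 h and 4 at 12 h. Shares of all tested genes called lower were 7.31% and 9.07%. The mean level of the 5 markers per array was 11.89 to 12.09 in DMSO and 11.47 to 11.83 in LBH589 at 6 h. At 12 h it was 11.85 to 12.14 against 11.18 to 11.68. Plk1, a mitotic kinase, fell by 0.58 at 6 h and by 0.94 at 12 h on the log2 scale. Their part in the members' result was not tested. Of the model's own markers, Myc read 8.34 to 8.78 and was above the 25th percentile of every array, and Gabra6, a marker of mature granule neurons, was above it on 0 of 12 arrays. Npr3, a Group 3 marker, fell (-1.63 at 6 h and -1.61 at 12 h). Gabra5 of the same list gave -0.65 and -0.46, called lower only with the block and only at 6 h (limma adjusted p = 0.0276). The others of that list, Myc (0.09 and 0.21), Otx2 (0.06 and -0.17), Impg2 (0.21 and -0.03) and Eomes (-0.01 and 0.14), were called in neither fit. The endothelial gene Kdr rose by 0.81 at 6 h and 0.71 at 12 h. Of the same list Cldn5 (0.55) and Pecam1 (0.28) were called higher at 12 h only with the block, and Cdh5 (0.14) in neither fit. At 12 h the block also called Gfap higher (0.42) and Slc1a3 lower (-0.39) among astrocyte markers. Among fibroblast markers it called Col1a1 higher (0.35) and Pdgfra lower (-0.48). Of the 3 neuronal markers tested Neurod1 fell at both times (-0.71 and -0.72) and Rbfox3 at 12 h (-0.72), while Snap25 gave 0.58 at 6 h and 0.47 at 12 h, called higher only with the block (adjusted p = 0.00139 and 0.00593). Of 3 stem and progenitor markers Prom1 fell at 12 h (-0.98), while Nes gave 0.77 at 6 h and 1.19 at 12 h, called higher only with the block (adjusted p = 0.0322 and 0.0022), and Sox2 gave -0.27 and 0.46, called in neither fit. Mean levels of the 4 neuronal markers were 8.58 to 9.33 in DMSO and 8.39 to 9.06 in LBH589. Mean levels of the 4 endothelial markers were 7.54 to 8.37 in DMSO and 8.13 to 8.68 in LBH589, and those of 6 microglial markers were 7.23 to 7.52 and 7.16 to 7.43; their part in the result was not tested either. Values of genes are log2 values of single probe sets, and mean levels average the genes of a list, the neuronal one including Gabra6. Levels are compared between arrays and never between genes.

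Promoter sequence is shown because the group is known for sharing E2F sites. RefSeq promoters of the mouse build GRCm38.p6 matched 46 of the 54 members by symbol, and the 250 bases before each start were searched on both strands for the E2F-type words TTTCCCGC, TTTGGCGC, TTTCGCGC and TTTGCCGC, of which neighbours can overlap. At least 1 of the words stood before 12 of the 46 members (26.1%) and before 583 of all 27025 genes in the promoter table (2.16%). Among members called lower at 6 or 12 h without the block 4 of 16 carried a word (25%). Among those called in neither direction without the block it was 8 of 29 (27.6%). Those 8 are not all unchanged genes. With the block Mcm6, Orc1, Pola1 and Rfc3 of them were called lower at 12 h, and Gins3 higher at 6 h. By role they stood before 5 of 9 licensing genes (55.6%), 2 of 6 genes of the cyclin E1 and E2F group and none of the 5 nucleotide genes. A match describes letters only, and its absence says only that these letters are not in this window. The licensing genes Cdc6, Mcm6 and Mcm7, chosen after the search, show the words in capitals with 15 bases on each side; Mcm6 has 3, of which 2 overlap.
Cdc6, chr11:98907998-98908035, plus strand: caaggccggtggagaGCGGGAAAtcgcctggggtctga
Mcm6, chr1:128359730-128359830, minus strand: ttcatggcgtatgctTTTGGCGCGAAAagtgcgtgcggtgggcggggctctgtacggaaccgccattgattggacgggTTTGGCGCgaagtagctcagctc
Mcm7, chr5:138172026-138172063, minus strand: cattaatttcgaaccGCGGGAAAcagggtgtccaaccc

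The 6 members with the largest average falls that match the table are given over the whole 250 bases, 5′ to 3′ in the direction of the gene and ending at the base before the RefSeq start, with any E2F word in capitals. E2f3 and E2f7 carry 1 each, Dbf4, Rrm2, Rfc5 and Mcm3 carry none, and for E2f3 the more upstream of 2 starts is printed.
Dbf4, chr5:8422717-8422966, minus strand: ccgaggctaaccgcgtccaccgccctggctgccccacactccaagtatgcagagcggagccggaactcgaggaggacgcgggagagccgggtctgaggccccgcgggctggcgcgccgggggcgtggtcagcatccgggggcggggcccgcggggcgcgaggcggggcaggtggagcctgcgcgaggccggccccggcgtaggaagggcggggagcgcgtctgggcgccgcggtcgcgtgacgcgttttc
Rrm2, chr12:24708004-24708253, plus strand: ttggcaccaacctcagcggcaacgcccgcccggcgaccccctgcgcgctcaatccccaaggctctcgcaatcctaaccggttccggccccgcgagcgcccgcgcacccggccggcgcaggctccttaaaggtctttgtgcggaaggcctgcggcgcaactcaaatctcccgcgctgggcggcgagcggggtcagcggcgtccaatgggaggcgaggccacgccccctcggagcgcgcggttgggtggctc
E2f3, chr13:29986064-29986313, minus strand: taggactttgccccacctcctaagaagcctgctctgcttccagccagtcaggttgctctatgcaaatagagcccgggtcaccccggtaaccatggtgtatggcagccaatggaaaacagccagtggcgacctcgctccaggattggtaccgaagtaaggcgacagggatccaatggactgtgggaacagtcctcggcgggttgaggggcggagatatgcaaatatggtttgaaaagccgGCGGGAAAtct
Rfc5, chr5:117389024-117389273, minus strand: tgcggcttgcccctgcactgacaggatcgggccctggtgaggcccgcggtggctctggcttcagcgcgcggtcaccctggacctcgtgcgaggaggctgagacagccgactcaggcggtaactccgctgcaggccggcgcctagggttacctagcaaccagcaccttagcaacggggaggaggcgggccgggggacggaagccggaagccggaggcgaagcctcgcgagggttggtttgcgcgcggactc
E2f7, chr10:110745189-110745438, plus strand: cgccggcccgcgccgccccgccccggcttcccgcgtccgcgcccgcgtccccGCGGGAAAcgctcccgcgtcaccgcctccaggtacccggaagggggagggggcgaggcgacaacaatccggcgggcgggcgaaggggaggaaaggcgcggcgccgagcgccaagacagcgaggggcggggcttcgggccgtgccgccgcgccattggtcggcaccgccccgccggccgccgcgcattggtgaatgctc
Mcm3, chr1:20820313-20820562, minus strand: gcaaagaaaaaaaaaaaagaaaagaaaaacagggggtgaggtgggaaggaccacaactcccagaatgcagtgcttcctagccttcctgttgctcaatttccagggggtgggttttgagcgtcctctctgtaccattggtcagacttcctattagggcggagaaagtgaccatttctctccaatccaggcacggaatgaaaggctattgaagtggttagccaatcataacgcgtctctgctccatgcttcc

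Among licensing factors and the MCM helicase the falls called without the block were all in MCM subunits, Mcm7 at 6 h and Mcm2, Mcm3, Mcm5 and Mcm7 at 12 h. Of 11 members in this role 1 fell at 6 h and 4 fell at 12 h, beside 7.31% and 9.07% of all tested genes. None rose, beside 8.49% and 9.13% of all genes, and the median difference was -0.23 at 6 h and -0.42 at 12 h. With the block 5 were lower at 6 h and 8 at 12 h, beside 16% and 18.5% of all genes. The 6 MCM subunits, which form the ring that unwinds DNA, were all below 0 at both times, from -0.11 (Mcm4) to -0.47 (Mcm3) at 6 h and from -0.29 (Mcm2) to -0.86 (Mcm3) at 12 h.

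Mcm3 at 12 h read 10.43, 10.54 and 10.18 in DMSO (MP525, MP567 and MP570, the order used throughout) and 9.62, 10.08 and 8.86 in LBH589. The groups did not overlap, and MP570 gave the lowest drug value. The difference was -0.86 (SE 0.25, adjusted p = 0.0342), a 1.81-fold fall. At 6 h Mcm3 read 10.45, 10.68 and 10.45 in DMSO against 10.03, 10.29 and 9.84, a difference of -0.47 that passed only with the block (adjusted p = 0.0211). Mcm7 read 12.12, 12.13 and 11.89 in DMSO and 11.66, 11.77 and 11.49 in LBH589 at 6 h, and 12.17, 12.08 and 11.94 against 11.63, 11.58 and 11.22 at 12 h. Every drug array was below every solvent array of its time. Mcm7 fell by 0.41 at 6 h (SE 0.12, adjusted p = 0.0427) and by 0.58 at 12 h (SE 0.12, adjusted p = 0.00707), and the 6 h call was lost in 6 of the 12 fits that each left out 1 array. Mcm5 fell by 0.65 at 12 h (SE 0.16, adjusted p = 0.0128) and stayed called without each array in turn.

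Mcm2 had the smallest called change. It read 11.58, 11.45 and 11.63 in DMSO and 11.40, 11.38 and 11.38 in LBH589 at 6 h, and 11.59, 11.45 and 11.50 against 11.33, 11.28 and 11.07 at 12 h. The groups did not overlap at either time, but the 12 h fall of 0.29 (SE 0.09, adjusted p = 0.0482) lost its call without 11 of the 12 arrays, the highest adjusted p being 0.159 without LBH589 MP570. Mcm4 (-0.59) and Mcm6 (-0.57) at 12 h overlapped between the groups and passed only with the block (adjusted p = 0.00122 and 5.11e-05).

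No loader of the helicase was called at either time without the block. Cdt1, which brings MCM to origins, read 11.64, 11.54 and 11.28 in DMSO and 10.98, 11.33 and 10.90 in LBH589 at 6 h, and 11.66, 11.45 and 11.16 against 10.96, 11.36 and 10.70 at 12 h. Its difference of -0.42 at each time passed only with the block (adjusted p = 0.00758 at 6 h and 0.00682 at 12 h). The groups overlapped, with the solvent value of MP570 below the drug value of MP567 at each time. Cdc6 read 9.33, 9.98 and 9.53 in DMSO and 9.59, 10.47 and 9.60 in LBH589 at 6 h, higher in each tumour. At 12 h it read 9.38, 9.88 and 9.29 against 9.04, 10.13 and 8.59, lower in MP525 and MP570 and higher in MP567. Neither the 6 h difference of 0.27 (95% interval -0.53 to 1.07) nor that of -0.26 at 12 h (-1.06 to 0.54) passed in either fit. Orc1, the largest origin recognition subunit, gave 0.15 at 6 h and -0.35 at 12 h, the latter called with the block (adjusted p = 0.0126), and Orc6 gave 0.22 and 0.08, called in neither fit. Geminin (Gmnn), the inhibitor of CDT1, gave -0.39 at 6 h, called with the block (adjusted p = 0.0245), and -0.27 at 12 h.

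Helicase activation held the largest fall of all members. Of 8 genes 1 fell and 2 rose at 6 h, 2 fell at 12 h, and the median was -0.17 and -0.43. Shares of all tested genes were 7.31% lower and 8.49% higher at 6 h, and 9.07% and 9.13% at 12 h. With the block 3 were lower and 3 higher at 6 h, and 5 lower and 1 higher at 12 h. Blocked shares over all tested genes were 16% and 18% at 6 h and 18.5% and 18.6% at 12 h. Dbf4, the activating subunit of the CDC7 kinase, read 10.99, 11.04 and 10.76 in DMSO and 10.18, 10.12 and 9.96 in LBH589 at 6 h. At 12 h it read 10.85, 11.10 and 10.88 against 9.71, 9.66 and 9.23. All drug values lay below all solvent values, with no overlap at either time. Dbf4 fell 1.79-fold at 6 h (log2 difference -0.84, SE 0.15, adjusted p = 0.00294) and 2.65-fold at 12 h (-1.41, SE 0.15, adjusted p = 0.000145). The call held without each array, and at 12 h also without each tumour, while at 6 h the adjusted p reached 0.0523 with a tumour left out. The kinase itself, Cdc7, gave -0.15 and -0.29, the latter called only with the block (adjusted p = 0.0138).

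Mcm10, which joins the helicase as it is activated, read 9.91, 10.35 and 10.08 in DMSO and 9.62, 10.11 and 9.80 in LBH589 at 6 h. At 12 h it read 9.86, 10.35 and 10.11 against 9.21, 9.62 and 9.13. The groups overlapped at 6 h (difference -0.27, called only with the block) and not at 12 h, when Mcm10 fell by 0.79 (SE 0.19, adjusted p = 0.0133). Without LBH589 MP570 at 12 h its adjusted p was 0.0542. Cdc45 gave -0.20 and -0.57, and its 12 h value was called only with the block (adjusted p = 0.000643).

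The 4 GINS subunits, which act as 1 complex with CDC45 and MCM, lay on both sides of 0. Gins2 read 10.03, 10.17 and 10.52 in DMSO and 10.68, 10.94 and 10.92 in LBH589 at 6 h, with no overlap, and rose by 0.61 (SE 0.15, adjusted p = 0.0196). At 12 h it read 10.18, 10.04 and 10.35 against 10.49, 10.80 and 10.46, again without overlap, and its difference of 0.39 passed only with the block (adjusted p = 0.0179). Gins4 rose by 0.36 at 6 h (SE 0.11, adjusted p = 0.041), a call lost without 7 of the 12 arrays, and Gins3 gave 0.42 at 6 h, called with the block (adjusted p = 0.00891). Gins1 lay below 0: it read 8.80, 9.55 and 9.39 in DMSO and 8.0, 9.02 and 8.75 in LBH589 at 6 h, and 9.07, 9.55 and 9.14 against 8.20, 8.85 and 8.21 at 12 h. Its differences of -0.65 and -0.83 were the same sign in each tumour and passed only with the block (adjusted p = 0.00162 and 0.00023). The arrays of Gins1, and those of Rpa1 given later, were chosen for display after their values were seen.

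**Figure D2:**
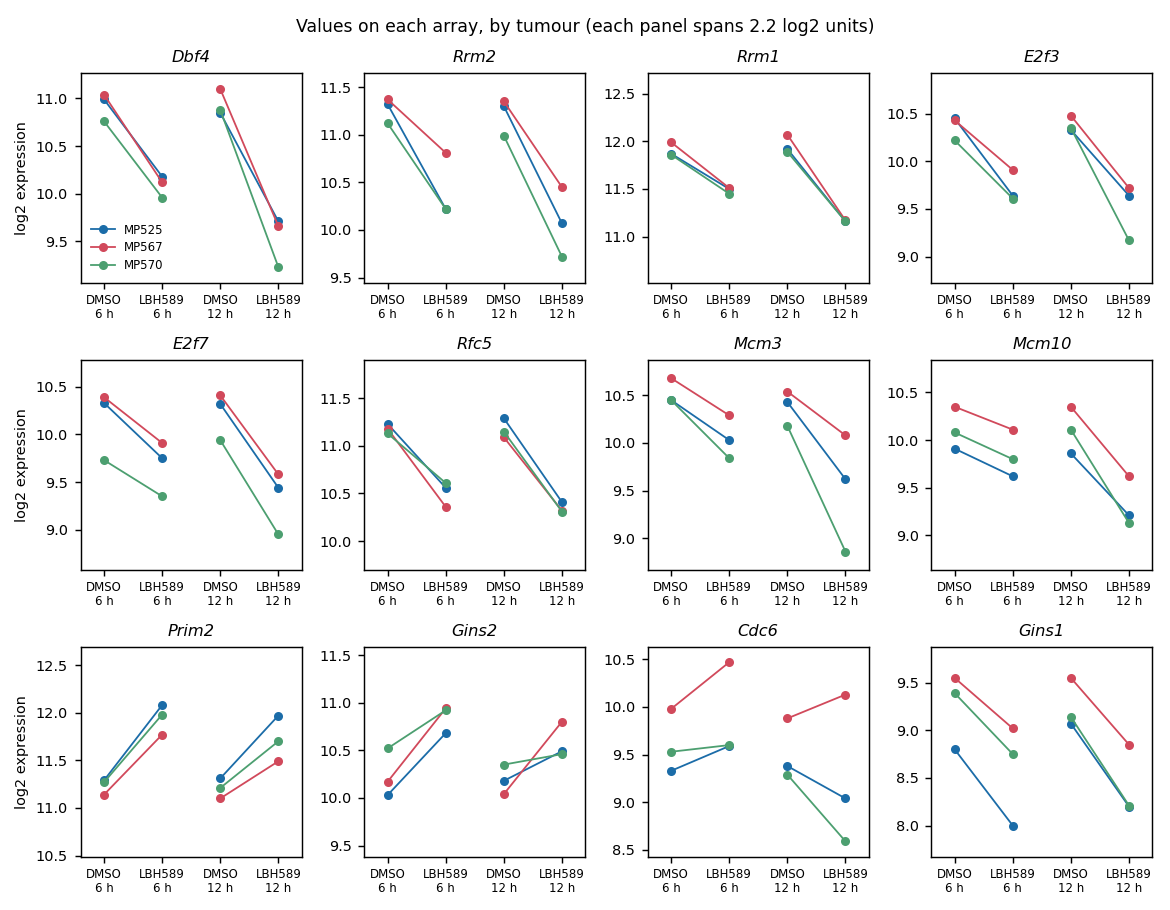
Log2 expression (y axis) of 12 members on each of the 12 arrays, with DMSO and LBH589 at 6 h and 12 h along the x axis and a line joining the arrays of 1 tumour at 1 time (MP525, MP567 and MP570 by colour); each panel spans the same range. Dbf4, Rrm2, Rrm1, E2f3 and Rfc5 drop in every tumour at both times, Prim2 and Gins2 climb in every tumour, and Cdc6 differs in direction between tumours at 12 h.

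Among polymerases and primase 1 of 9 members fell and 1 rose at 6 h, and 3 fell and 1 rose at 12 h, with medians of -0.13 and -0.36. Shares of all tested genes were 7.31% lower and 8.49% higher at 6 h, and 9.07% and 9.13% at 12 h. With the block 1 was lower and 2 higher at 6 h, and 5 lower and 1 higher at 12 h. Blocked shares over all tested genes were 16% and 18% at 6 h and 18.5% and 18.6% at 12 h. The falls were in the leading and lagging strand enzymes, polymerases epsilon and delta: Pold2 by 0.50 at 6 h (SE 0.12, adjusted p = 0.015) and 0.46 at 12 h (SE 0.12, adjusted p = 0.0185), and, at 12 h, the catalytic subunit Pole by 0.60 (adjusted p = 0.0226) and Pole2 by 0.55 (adjusted p = 0.0289). A second, dimmer probe set of Pole gave -0.14 and -0.13. Pola1, the catalytic subunit of polymerase alpha, gave -0.54 at 12 h and passed only with the block (adjusted p = 0.000347), as did Pold3 at -0.36 (adjusted p = 0.00249). Pold1 (0.06 and 0.04) and the primase catalytic subunit Prim1 (-0.10 and -0.15) passed in neither fit.

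Prim2 was the member with the largest rise. It read 11.29, 11.14 and 11.27 in DMSO and 12.08, 11.77 and 11.98 in LBH589 at 6 h, and 11.31, 11.10 and 11.21 against 11.97, 11.49 and 11.70 at 12 h. All drug arrays lay above all solvent arrays. The rise was 1.64-fold at 6 h (log2 difference 0.71, SE 0.13, adjusted p = 0.00306) and 1.43-fold at 12 h (0.52, SE 0.13, adjusted p = 0.0143). Its 12 h adjusted p was 0.0542 without DMSO MP567 at 12 h.

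Of the 10 members around the sliding clamp 1 fell and 1 rose at 6 h and 1 fell at 12 h, with medians of 0.00 and -0.20. These counts were near the shares of all tested genes, 7.31% lower and 8.49% higher at 6 h, and 9.07% and 9.13% at 12 h. With the block 2 were lower and 1 higher at 6 h, and 4 lower and 1 higher at 12 h. Blocked shares over all tested genes were 16% and 18% at 6 h and 18.5% and 18.6% at 12 h. Rfc5, a small subunit of the clamp loader that opens PCNA, was the steadiest of all falls. It read 11.23, 11.18 and 11.13 in DMSO and 10.56, 10.36 and 10.61 in LBH589 at 6 h, and 11.29, 11.09 and 11.15 against 10.41, 10.32 and 10.31 at 12 h. The groups did not overlap at either time. The fall was 1.59-fold at 6 h (-0.67, SE 0.10, adjusted p = 0.00127) and 1.78-fold at 12 h (-0.83, SE 0.10, adjusted p = 0.00031), and at 6 h it was the only member whose call held without each array and without each tumour. Of the other loader subunits, Rfc3 gave -0.31 and -0.59, called at 12 h only with the block (adjusted p = 0.0014), Rfc2 gave 0.00 and -0.02, and Rfc1 gave 0.08 and -0.15, both called in neither fit.

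Pcna, the clamp, read 12.93, 13.07 and 12.67 in DMSO and 12.61, 12.93 and 12.40 in LBH589 at 6 h, and 12.98, 13.06 and 12.71 against 12.62, 12.71 and 12.26 at 12 h. It was lower in each tumour at each time. The difference of -0.24 at 6 h overlapped between groups and that of -0.39 at 12 h did not, and both passed only with the block (adjusted p = 0.00279 and 6.31e-05). Rpa1, the large subunit of the single-strand binding protein, rose by 0.61 at 6 h (SE 0.14, adjusted p = 0.0137), from 9.86, 10.10 and 9.87 to 10.59, 10.65 and 10.41, and a second, dim probe set of the gene gave 0.06, so the mean of the probe sets was not called. At 12 h its 0.35 passed only with the block (adjusted p = 0.00453). Its partners Rpa2 (0.01 and -0.06) and Rpa3 (0.08 and -0.26) passed in neither fit. Of the enzymes that finish Okazaki fragments, Lig1 gave -0.26 and -0.55, the latter called with the block (adjusted p = 0.00109), and Fen1 gave 0.04 and -0.05.

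Deoxynucleotide supply was the role in which every member was lower at both times. Of its 5 members 3 fell at 6 h and 4 at 12 h, and all 5 were called when both times were averaged. Shares of all tested genes called lower were 7.31%, 9.07% and 14.4%. No member of this role rose, and the role's median was -0.42 at 6 h and -0.64 at 12 h. Rrm2, the small subunit of ribonucleotide reductase, which makes deoxynucleotides, read 11.32, 11.37 and 11.12 in DMSO and 10.22, 10.81 and 10.22 in LBH589 at 6 h, and 11.30, 11.35 and 10.99 against 10.07, 10.45 and 9.72 at 12 h. No drug value reached a solvent value, and MP567 kept the highest drug value at both times. Rrm2 fell 1.81-fold at 6 h (-0.85, SE 0.20, adjusted p = 0.0149) and 2.2-fold at 12 h (-1.14, SE 0.20, adjusted p = 0.0028), and a second, dim probe set gave -0.41 and -0.78. Its 6 h adjusted p reached 0.0646 without LBH589 MP570 and was 0.0549 when its probe sets were averaged.

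The large subunit Rrm1 had the narrowest spread: 11.87, 11.99 and 11.86 in DMSO and 11.50, 11.51 and 11.45 in LBH589 at 6 h, and 11.92, 12.07 and 11.89 against 11.16, 11.17 and 11.16 at 12 h. The groups were far apart, and the 3 tumours ended at nearly the same level after 12 h of drug. The fall was 0.42 at 6 h (SE 0.08, adjusted p = 0.00382) and 0.80 at 12 h (SE 0.08, adjusted p = 8.54e-05). Tyms, which makes thymidylate, read 10.50, 10.64 and 10.11 in DMSO and 10.07, 10.28 and 9.78 in LBH589 at 6 h, overlapping, and 10.54, 10.67 and 10.21 against 10.05, 9.94 and 9.49 at 12 h, without overlap. It fell by 0.64 at 12 h (SE 0.20, adjusted p = 0.0435), a call lost without 6 of the 12 arrays. Thymidine kinase (Tk1) fell by 0.42 at 6 h (adjusted p = 0.0215) and 0.38 at 12 h (adjusted p = 0.0301), and Dut, which removes dUTP, gave -0.19 and -0.28, the latter called with the block (adjusted p = 0.0182).

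Among cyclin E1 and the E2F factors E2f3 was called at both times and E2f7 and E2f8 at 12 h. Of Ccne1 and 5 E2F genes 1 fell at 6 h and 3 fell at 12 h, beside 7.31% and 9.07% of all tested genes. None rose, beside 8.49% and 9.13% of all genes, and the median was -0.14 and -0.38. With the block 2 were lower at 6 h, and 4 lower and 1 higher at 12 h. Blocked shares over all tested genes were 16% and 18% at 6 h and 18.5% and 18.6% at 12 h. E2f3, an activator, read 10.45, 10.43 and 10.22 in DMSO and 9.64, 9.91 and 9.61 in LBH589 at 6 h, and 10.33, 10.48 and 10.35 against 9.64, 9.72 and 9.17 at 12 h. The groups were separate at both times, and E2f3 fell by 0.65 (SE 0.15, adjusted p = 0.0149) and 0.87 (SE 0.15, adjusted p = 0.00254). Its 12 h call held without each array and each tumour, and at 6 h its adjusted p reached 0.0625 without LBH589 MP570. E2f1, another activator, read 11.23, 11.56 and 11.36 in DMSO and 10.93, 11.55 and 11.13 in LBH589 at 6 h, and 11.30, 11.61 and 11.39 against 11.14, 11.53 and 11.12 at 12 h. Its groups overlapped at both times, with differences of -0.18 (95% interval -0.55 to 0.19) and -0.17 (-0.54 to 0.20) called in neither fit. E2f2 gave 0.25 and 0.33, and the second was called higher with the block (adjusted p = 0.0364).

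The atypical repressors were called at 12 h. E2f7 read 10.33, 10.39 and 9.73 in DMSO and 9.75, 9.91 and 9.35 in LBH589 at 6 h, and 10.32, 10.41 and 9.94 against 9.44, 9.58 and 8.95 at 12 h. At 6 h the solvent value of MP570 lay below the drug values of MP525 and MP567, and at 12 h the groups did not overlap. E2f7 fell by 0.90 at 12 h (SE 0.23, adjusted p = 0.018), and its -0.48 at 6 h passed only with the block (adjusted p = 0.000331). Without LBH589 MP570 at 12 h the adjusted p of E2f7 was 0.0732. E2f8 read 10.62, 10.62 and 10.68 in DMSO and 10.55, 10.66 and 10.86 in LBH589 at 6 h, a difference of 0.05, and 10.42, 10.64 and 10.79 against 10.08, 10.32 and 10.05 at 12 h. The groups overlapped at 6 h and were separate at 12 h, when E2f8 fell by 0.47 (SE 0.13, adjusted p = 0.0238). Ccne1, the cyclin that drives CDK2 at the G1/S border, read 9.93, 10.12 and 9.98 in DMSO and 9.78, 10.20 and 9.76 in LBH589 at 6 h, and 9.86, 10.03 and 9.92 against 9.43, 9.91 and 9.59 at 12 h. Its groups overlapped at both times, and only the 12 h difference of -0.30 passed, with the block (adjusted p = 0.0181).

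None of the 5 genes that package or mark new DNA was called at either time without the block. Shares of all tested genes were 7.31% lower and 8.49% higher at 6 h, and 9.07% and 9.13% at 12 h. At an unadjusted p under 0.05 the count of the 5 genes was also 0 at both times. Their median was 0.23 at 6 h and -0.09 at 12 h. Slbp, which binds histone mRNA, read 10.42, 10.75 and 10.35 in DMSO and 10.64, 11.02 and 10.53 in LBH589 at 6 h, and 10.39, 10.72 and 10.18 against 10.47, 10.83 and 9.92 at 12 h. It was higher in each tumour at 6 h, by 0.23 on average (95% interval -0.27 to 0.73), and mixed at 12 h (-0.02, -0.53 to 0.48). Dnmt1, the maintenance DNA methyltransferase, read 11.55, 11.79 and 11.42 in DMSO and 11.28, 11.64 and 11.52 in LBH589 at 6 h, and 11.45, 11.90 and 11.65 against 11.33, 11.77 and 11.53 at 12 h. The groups overlapped, and its differences of -0.10 and -0.12 passed in neither fit. Chaf1b, a subunit of the histone chaperone CAF-1, was higher by 0.34 at 6 h with the block (adjusted p = 0.00226), Chaf1a gave 0.23 and -0.12, and Uhrf1, which guides DNMT1, gave 0.18 and -0.05.

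The question of timing was asked in each treatment. In solvent the median change from 6 h to 12 h was -0.03 in DMSO, 0 members were called (limma, 0 at an unadjusted p under 0.05), and 0% of all genes were called lower and 0.0214% higher. By sign alone 34 of 54 members were lower at 12 h in DMSO, beside 9108 of 18652 tested genes. In LBH589 the median change was -0.25, beside 0.01 over all tested genes. There 49 of 54 members were lower at 12 h than at 6 h, beside 8750 of 18652 tested genes. Without the block 0 members were called (limma, 10 at an unadjusted p under 0.05), beside 0% of genes in either direction. With the block 8 were lower at 12 h and none higher, beside 1.27% and 0.724% of all genes: Orc1 (-0.63), Dbf4 (-0.55), E2f8 (-0.54), Mcm10 (-0.53), Chaf1b (-0.46), Cdc45 (-0.45), E2f7 (-0.35) and Rrm1 (-0.33). All 8 calls rested on few arrays, since 0 remained without LBH589 MP525 at 6 h, without LBH589 MP570 at 6 h or without LBH589 MP570 at 12 h, 3 without LBH589 MP567 at 6 h, and 13 were called without LBH589 MP525 at 12 h.

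Tested directly, the drug effect at 12 h minus that at 6 h was called for 0 of 54 members (limma, 3 at an unadjusted p under 0.05), and 0% of all genes were called lower or higher. Its sign was negative for 49 of 54 members, beside 9241 of 18652 tested genes, with a median of -0.23 beside 0.00 over all genes. So the larger number of calls at 12 h is not shown as a difference between times. These comparisons share arrays: the same LBH589 arrays enter the change in LBH589 and the drug effect.

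**Figure D3:**
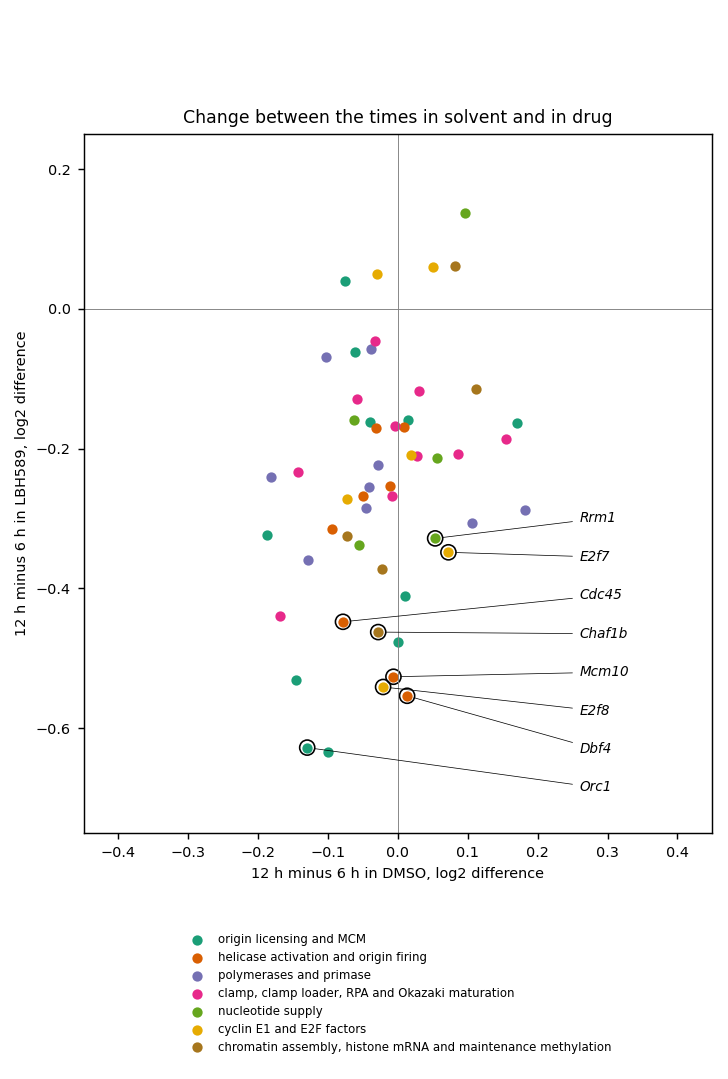
Change from 6 h to 12 h in DMSO (x axis) against that in LBH589 (y axis), both as log2 differences, for the 54 members coloured by role; circled and named genes were called lower in LBH589 with the tumour block. Points spread about 0 along the x axis and lie mostly below 0 along the y axis, where 49 of 54 are negative.

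In each of the 3 tumours the members were shifted down. The median difference between LBH589 and DMSO over the members at 6 h was -0.19 in MP525, -0.08 in MP567 and -0.18 in MP570, and at 12 h -0.28, -0.28 and -0.46. Over all tested genes the median at 12 h was -0.03, -0.02 and 0.07. At 12 h 42, 39 and 47 of 54 members were lower in MP525, MP567 and MP570, beside 53.3%, 52.5% and 42% of all tested genes. At 6 h 28 members were lower in all 3 tumours, 13 higher in all 3 and 13 mixed, and at 12 h these counts were 35, 6 and 13. The matching shares of all tested genes were not reported, so these counts over the 3 tumours stand without a background. The change between the times in LBH589 was -0.15 in MP525, -0.20 in MP567 and -0.39 in MP570, where 52 of 54 members were lower at 12 h, and in DMSO it was 0.00, 0.00 and -0.05.

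**Figure D4:**
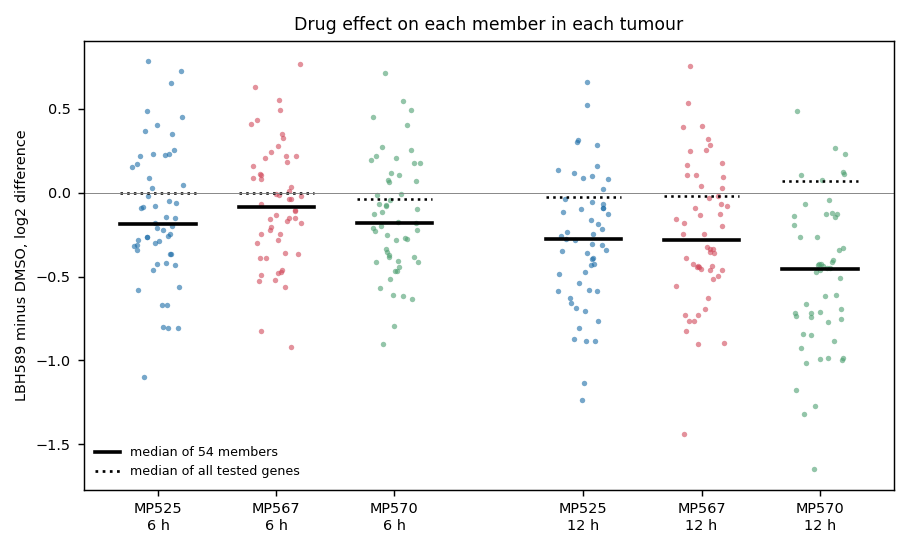
Log2 difference between LBH589 and DMSO (y axis) for each of the 54 members (points) in each tumour at 6 h and 12 h (x axis), with the median of the members (solid bar) and of all tested genes (dotted bar). The solid bar lies below the dotted bar in every column, lowest in MP570 at 12 h at -0.46.

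An F-test of the drug effect between tumours called 0 of 54 members (limma, 8 at an unadjusted p under 0.05), beside 1.06% of all genes. This test takes the drug effect as equal at 6 h and 12 h, so the times stand in for replicates of each tumour. Cdt1 had the lowest value (limma adjusted p = 0.0748). LBH589 minus DMSO for Cdt1 was -0.67, -0.21 and -0.38 at 6 h and -0.71, -0.09 and -0.46 at 12 h, in MP525, MP567 and MP570, so the effect was smallest in MP567 at both times. Quantile normalization of the arrays called Cdt1 (adjusted p = 0.0374). Leaving out LBH589 MP570 at 6 h called Mcm3 (adjusted p = 0.039) and Fen1 (adjusted p = 0.0426) in its place.

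Levels of the members differed widely between tumours. An F-test with the groups as a term called 40 of 54 members, beside 37.4% of all genes. MP567 had the highest mean for 32 of the 40 and MP570 the lowest for 28. Among all 6982 genes called MP567 was highest for 35.4% and MP570 lowest for 24.1%. These means run over both solvent and drug arrays. The members' median drug difference at 12 h was -0.46 in MP570, beside -0.28 in MP525 and -0.28 in MP567. The order of the tumours in solvent alone was not tested. The range of the 3 tumour means had a median of 0.43 and was largest for Cdc6, at 0.86, with means of 9.33, 10.12 and 9.26 over 4 arrays each in MP525, MP567 and MP570.

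By the smallest adjusted p the leading members were Mcm6, Chaf1b, Pcna and E2f7. Mcm6 departed from the usual order, with means of 11.34 in MP525, 10.91 in MP567 and 10.59 in MP570 (adjusted p = 5.6e-06). Chaf1b was higher in MP567, at 11.51, than in MP525 (10.92) and MP570 (10.98), which differed little. Pcna followed the common order at 12.79, 12.94 and 12.51, and E2f7 likewise at 9.96, 10.07 and 9.49. The 4 arrays of a tumour span both treatments, so these means describe tumours across the design. They also share their source, so the F-test compares these tumours only.

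Replication genes outside the list moved in the same comparisons. Of 61 further genes of S phase, 55 were on the array, and 14 fell and 2 rose at 6 h while 26 fell and none rose at 12 h. Shares of all tested genes were 7.31% lower and 8.49% higher at 6 h, and 9.07% and 9.13% at 12 h. The medians of the 55 genes were -0.25 and -0.46. Lin9, a subunit of the MuvB complex that represses or activates cell cycle genes with its partners, fell by 1.15 at 6 h (adjusted p = 0.00146) and 1.5 at 12 h (adjusted p = 0.000293). Cdca7 and the nuclease-helicase Dna2 each fell by 0.95 at 6 h (adjusted p = 0.000354 and 0.0193), and Dna2 fell by 1.25 at 12 h (adjusted p = 0.00384). The rises at 6 h were those of Tk2, the mitochondrial thymidine kinase (0.63, adjusted p = 0.0355), and Asf1b, a histone chaperone (0.46, adjusted p = 0.00563). With the block 27 of these genes were lower and 8 higher at 6 h, and 37 lower and 3 higher at 12 h. Blocked shares over all tested genes were 16% and 18% at 6 h and 18.5% and 18.6% at 12 h.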

How the data were processed

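RNA of 12 cultures was extracted with RNeasy, amplified, biotin labelled and hybridised to Affymetrix Mouse Gene 2.0 ST arrays, per the labels' protocols. The authors deposited 1 table of log2 values per probe set and array; how they were normalized was not given in the sources used here. The 1 tool in the submitters' processing notes is Agilent Feature Extraction 10.7.3.1. Array medians were 7.10 to 7.21, and no scaling was added. Precision is limited by how few arrays each group has.

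Of 41345 probe sets 23521 named 1 gene, 1814 several and 16010 were not listed in the platform annotation. The probe set with the highest mean stood for a gene. Of 22180 genes, 18652 above the 25th percentile of the array on at least 3 arrays were tested. limma 3.58.1 in R 4.3.3 fitted 4 group means with eBayes and a trend of variance with mean level (residual degrees of freedom: 8), and Benjamini-Hochberg adjusted p under 0.05 was called. The alternative with the tumour as a block had 6. Tumours pair the arrays: each culture belongs to a labelled tumour, and deviations from group means correlated at 0.450 to 0.805 over 18 same-tumour pairs and at -0.51 to -0.0577 over 36 pairs of different tumours. F-tests compared levels and drug effects between tumours. The test of drug effects took the effect as equal at both times, which stood in for replicates within a tumour. The code was tested on simulated data.

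The members and lists were chosen with earlier results of these data known. Values on every array are given for the 12 members with the largest average effect among those called, for the member with the largest value in the other direction and always for Pcna, Mcm2, Cdc6, Cdt1, Rrm1, Rrm2, Ccne1, E2f1, E2f8, Slbp and Dnmt1. Alternatives were the block, scaling, the filter, the probe set rule, the variance model and leaving out arrays or tumours.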

Additional observations from a re-analysis of the deposited data

Results flagged for a closer look

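Orc1, Chaf1b and Uhrf1 were higher in LBH589 than in DMSO at 6 h and lower at 12 h in each of the 3 tumours. At 12 h the differences in MP525, MP567 and MP570 were -0.23, -0.20 and -0.61 for Orc1. They were closer to 0 for Chaf1b (-0.07, -0.02 and -0.19) and Uhrf1 (-0.04, -0.07 and -0.04). How many of all genes share this pattern of signs was not counted. The effect at 12 h minus that at 6 h was -0.498 for Orc1, -0.434 for Chaf1b and -0.227 for Uhrf1, with a limma adjusted p of 1 for each.

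In 4 members the drug effect was above 0 at both times in 1 tumour and below 0 at both times in another. The difference between tumours in the average effect was 0.255 for Pold1 (MP567 minus MP570). For Rpa2 it was -0.413 (MP525 minus MP567) and 0.328 (MP567 minus MP570). For Rpa3 it was 0.428 (MP525 minus MP570). For Fen1, the flap endonuclease, it was -0.349 (MP525 minus MP567) and 0.612 (MP567 minus MP570). The limma F-test of the drug effect between tumours gave an adjusted p of 0.517 for Pold1, 0.219 for Rpa2, 0.376 for Rpa3 and 0.234 for Fen1, so none passed.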

How the results depend on the processing

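Single members were followed for the drug effect at 6 h, at 12 h and averaged, and none changed direction with its call under an alternative. The time comparisons and the blocked fits without an array or tumour were not part of this count. Of 3888 values of single members under an alternative, 3558 kept their side of the threshold, 228 lost a call and 102 gained one. With the tumour as a fixed replicate block 17 members were lower and 7 higher at 6 h, 31 lower and 4 higher at 12 h, 32 lower on average, and 8 lower at 12 h than at 6 h in LBH589; the other counts moved by less than 1.5 times. The tumour as a random block gave 30 lower and 4 higher at 12 h. Centring on array medians left 3 higher on average, and quantile normalization called 1 drug effect that differed between tumours. Leaving out an array or a tumour gave 2 to 8 lower and 0 to 5 higher at 6 h, 6 to 18 lower and 0 to 1 higher at 12 h, 11 to 22 lower and 2 to 6 higher on average, 35 to 41 members that differed between tumours, and 0 to 2 whose drug effect did; counts of 0 for the time comparisons stayed at 0. Leaving arrays or tumours out of the blocked fit was chosen after seeing the data: 12 of 17 falls at 6 h and 25 of 31 at 12 h held without each array, and none of the 8 falls over time in LBH589 did. Centring on reference genes ended the 12 h calls of E2f8, Pold2, Tk1, Tyms and Mcm2. The cause was not tested.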
